A study of Mus musculus with 2 samples.

Results

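The genes described here encode the enzymes that write DNA methylation, the Uhrf proteins that help to copy it, and the enzymes that oxidise and remove it. They are the 10 genes Dnmt1, Dnmt3a, Dnmt3b, Dnmt3l, Uhrf1, Uhrf2, Tet1, Tet2, Tet3 and Tdg, chosen by symbol from the 29126 entries of the expression table. Each gene had 1 entry, and all 10 entries had the Cuffdiff status OK, which the study took to mean enough reads for quantification. The samples are cultures of mouse embryonic fibroblasts (MEFs), from which strand-specific libraries of mRNA were sequenced, 1 for Dnmt1+/+ and 1 for Dnmt1-/- cells. According to the study, the line called Dnmt1-/- carries a hypomorphic Dnmt1 allele on both chromosomes, and both lines are also null for Trp53, which encodes p53. The strain is given as unknown in the labels. As 1 library stands for each genotype, a difference between the genotypes and any other difference between the lines cannot be told apart. In bulk RNA, fewer cells that express a gene and less RNA per cell cannot be told apart either.

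Methylation of cytosine in CpG dinucleotides is copied after replication by Dnmt1, which is brought to newly made DNA by Uhrf1, a protein that binds hemimethylated CpGs. New methylation is set by Dnmt3a and Dnmt3b. Dnmt3l has no catalytic activity of its own and assists them, above all in germ cells. Tet proteins oxidise methylcytosine in steps, and Tdg, a DNA glycosylase, cuts out the most oxidised forms so that base excision repair can put back an unmodified cytosine.

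Sequence is shown for Dnmt1, Tet1 and Tet2, which had the largest drops of the 10 genes on the scale used below, and for Uhrf1, which stayed at a high level. Each window is the 250 bases before a transcription start in the RefSeq promoter table (build GRCm38.p6). Together with the 50 bases after the start, each matched its own chromosome in NCBI37 (mm9) at exactly 1 place. Only that chromosome was searched, on the strand of the gene. The sequences run 5′ to 3′ on the strand of the gene, in lower case apart from CpG dinucleotides, the substrate of the methyltransferases, which are in capitals. For Dnmt1, on the minus strand, the first window lies before the RefSeq start closest to the 5′ end of the gene in the GENCODE annotation (chr9:20757424-20757673). The second lies before the most distal RefSeq start (chr9:20764333-20764582), which is where the deposited entry ends. The windows of Tet1 (chr10:62350073-62350322) and Tet2 (chr3:133207355-133207604) are on the minus strand as well, and that of Uhrf1 (chr17:56442510-56442759) is on the plus strand.
Dnmt1, nearest start: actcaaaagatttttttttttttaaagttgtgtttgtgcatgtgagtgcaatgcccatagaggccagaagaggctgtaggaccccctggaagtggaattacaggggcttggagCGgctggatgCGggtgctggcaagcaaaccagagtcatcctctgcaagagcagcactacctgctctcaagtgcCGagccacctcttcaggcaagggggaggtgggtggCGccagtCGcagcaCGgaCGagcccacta
Dnmt1, distal start: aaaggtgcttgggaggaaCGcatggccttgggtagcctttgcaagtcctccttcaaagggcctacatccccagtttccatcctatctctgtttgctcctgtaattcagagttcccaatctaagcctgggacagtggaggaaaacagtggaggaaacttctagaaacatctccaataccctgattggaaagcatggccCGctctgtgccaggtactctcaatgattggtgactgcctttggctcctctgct
Tet1: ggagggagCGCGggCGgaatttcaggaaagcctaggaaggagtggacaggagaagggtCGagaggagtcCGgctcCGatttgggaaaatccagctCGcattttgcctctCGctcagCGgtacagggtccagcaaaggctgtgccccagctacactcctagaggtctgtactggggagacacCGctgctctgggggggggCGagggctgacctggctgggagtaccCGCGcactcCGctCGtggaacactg
Tet2: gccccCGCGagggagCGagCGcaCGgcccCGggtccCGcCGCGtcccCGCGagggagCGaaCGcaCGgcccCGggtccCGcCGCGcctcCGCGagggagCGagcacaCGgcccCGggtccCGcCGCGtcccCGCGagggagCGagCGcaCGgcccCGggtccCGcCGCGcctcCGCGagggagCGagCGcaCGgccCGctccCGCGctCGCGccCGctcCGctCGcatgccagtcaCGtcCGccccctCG
Uhrf1: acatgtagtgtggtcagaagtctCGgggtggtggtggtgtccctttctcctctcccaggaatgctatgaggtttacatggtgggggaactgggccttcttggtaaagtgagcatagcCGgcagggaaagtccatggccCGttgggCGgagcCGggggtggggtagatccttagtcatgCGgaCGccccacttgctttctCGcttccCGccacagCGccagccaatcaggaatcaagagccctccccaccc

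The CpG content of these windows differed widely. The 250 bases before the nearest Dnmt1 start held 7 CpGs and those before the distal start 2. The Uhrf1 window held 10, the Tet1 window 15 and the Tet2 window 51. Before another RefSeq start, not shown, the 250 bases held 26 CpGs for Dnmt1 and 30 for Uhrf1. In the Tet2 window a word of 12 bases recurred 5 times, and 2.62% of all 32851 promoter windows in the table held a word repeated at least as often. DNA methylation at these sites was not analysed here.

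All genes were compared first, as the frame for single values. The deposited unit is RPKM, which relates the reads on a transcript to its length and to the size of the library, so that levels can be set side by side between genes as well as between libraries. Changes are log2 differences of RPKM + 0.1 (Dnmt1-/- minus Dnmt1+/+), a scale that understates the change of genes with a low level. There were 11244 genes with a symbol, status OK and at least 1 RPKM in either library. Among these genes, called the genes kept below, 10.9% were past 2-fold in the direction of lower RPKM in Dnmt1-/- MEFs, and 8.47% in the direction of higher RPKM. With the median change subtracted, the order turned, at 8.58% lower and 9.71% higher. That median was -0.14 on the log2 scale, the general shift against which single changes are to be read. As the spread between replicates is unknown, no test was possible, and each difference describes these 2 libraries.

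The identity of the cells was checked with marker genes of several cell types. The 10 fibroblast markers (collagens, vimentin, fibronectin and others) summed to 6291 RPKM in Dnmt1+/+ and 4980.0 in Dnmt1-/- MEFs, and all of them reached 1 RPKM in both libraries except Thy1, at 0.129 in Dnmt1-/-. Single markers differed in both directions. Col1a2 went from 1241 to 476 RPKM and Fn1 from 664 to 235, whereas S100a4 went from 290 to 1262 and Pdgfra from 6.95 to 18.7. The 6 epithelial markers summed to 0.363 and 2.19 RPKM, with Krt14 at 1.46 in Dnmt1-/-, and the 4 endothelial markers to 0.461 and 0.679. Of 5 haematopoietic markers, Ptprc and Emr1 were listed at 0 in both libraries, but the sum was 0.666 RPKM in Dnmt1+/+ and 9.73 in Dnmt1-/-, where Csf1r was at 6.08 and Cd68 at 3.63. Tubb3, a neural marker, was at 16.9 and 12.9 RPKM, and the other 2 neural markers with an entry, Gfap and Rbfox3, were at 0.207 or less. None of the 3 germ cell markers was above 0.338 RPKM. Whether other cells had a part in the values below was not tested. Trp53 RNA was at 18.6 RPKM in Dnmt1+/+ and 19.9 in Dnmt1-/-. The table does not show which exons these reads came from. Actb, often used as a reference gene, was at 1759 and 3779 RPKM.

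Dnmt1, the maintenance methyltransferase and the gene mutated in these cells, had the highest level of the 10 genes in Dnmt1+/+ MEFs. It was at 65.2 RPKM in Dnmt1+/+ and 14.5 RPKM in Dnmt1-/-, which is 0.223 times as much. The log2 change was -2.16, and 3.13% of all genes kept fell further. Its level was above that of 90.3% of the genes kept in Dnmt1+/+ and of 59.7% in Dnmt1-/-, so that RNA from the mutated gene remained at a moderate level. The entry covers chromosome 9 from 20711649 to 20764332 and reaches 7015 bp beyond the 5′ end of the gene in the GENCODE annotation, as far as the distal RefSeq start. It gives 1 value for the whole locus, so RNA from the different starts, or from exons before and after the mutation, is not told apart.

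**Figure D1:**
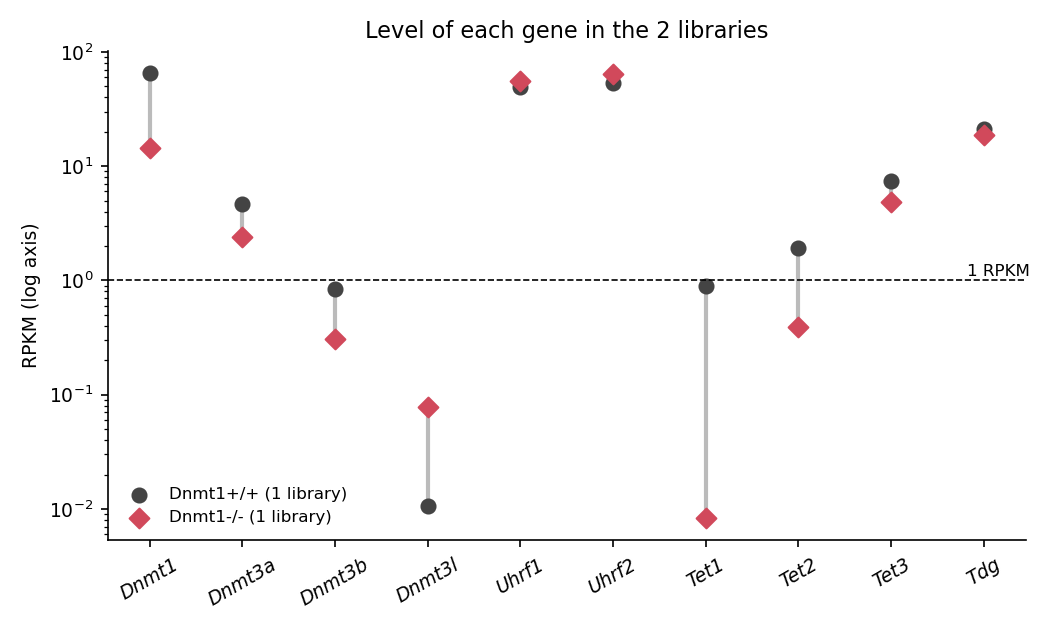
RPKM of the 10 genes on a log axis, with the Dnmt1+/+ library as circles and the Dnmt1-/- library as diamonds, joined by a line for each gene, and the minimum of 1 RPKM as a dashed line. Dnmt1 dropped from the highest level, 65.2, to 14.5, Uhrf1 and Uhrf2 stayed near their level, and Tet1 went from 0.889 to 0.00830.

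The de novo methyltransferases had much lower levels than Dnmt1 and were lower still in Dnmt1-/- MEFs. Dnmt3a (chr12:3806979-3914443, mm9) was at 4.68 RPKM in Dnmt1+/+ and 2.39 in Dnmt1-/-, a log2 change of -0.94, which lies just inside 2-fold. Dnmt3b (chr2:153475189-153513466) was at 0.839 and 0.308 RPKM, a log2 change of -1.20, but did not reach 1 RPKM in either library. Dnmt3l (chr10:77492775-77526360), the germ cell cofactor, was close to absent, at 0.0106 RPKM in Dnmt1+/+ and 0.0779 in Dnmt1-/-, above 0.934% of the genes kept in the former and 0.978% in the latter. Its entry overlaps that of Aire, which also has status OK although listed at 0 in both libraries. The status OK therefore does not show that a gene has reads of its own.

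The make-up of the methyltransferase RNA does not depend on how the libraries were scaled, since it is formed within each library. Dnmt1 made up 92.2% of the summed RPKM of Dnmt1, Dnmt3a and Dnmt3b in Dnmt1+/+ and 84.3% in Dnmt1-/- MEFs. The share of Dnmt3a went from 6.61% to 13.9%, although its own level was lower, because the sum of the 3 genes went from 70.8 to 17.2 RPKM. Dnmt1 was 13.9 times as high as Dnmt3a in Dnmt1+/+ and 6.08 times as high in Dnmt1-/-. Dnmt1 thus had the most RNA of these 3 genes in both libraries. In Dnmt1-/- MEFs that RNA comes from the mutant allele, and whether it encodes active enzyme was not tested.

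The Uhrf genes did not follow Dnmt1. Uhrf1 (chr17:56442759-56462909), which recruits Dnmt1 to hemimethylated DNA, was at 49.2 RPKM in Dnmt1+/+ and 55.1 in Dnmt1-/-, a log2 change of 0.16. Uhrf2 (chr19:30104938-30168214), its paralog with a similar domain structure, was at 52.8 and 63.9 RPKM, a log2 change of 0.27. Across the 10 settings of pseudocount, filter, status and scaling, the change of Uhrf1 ranged from 0.16 to 0.31. That of Uhrf2 ranged from 0.27 to 0.42. Pseudocount, filter and status cannot turn the sign of a change, so the shared sign is no separate support. In Dnmt1-/- MEFs Uhrf1 and Uhrf2 were the pair with the highest level of the 10 genes, above 87.9% and 90.0% of the genes kept.

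Set against its partner within a library, Dnmt1 was 1.33 times as high as Uhrf1 in Dnmt1+/+ and 0.264 times as high in Dnmt1-/-. Pcna, the sliding clamp that holds Dnmt1 and other enzymes at the replication fork, was at 92.2 and 92.8 RPKM. The ratio of Dnmt1 to Pcna was 0.707 in Dnmt1+/+ and 0.157 in Dnmt1-/-, while that of Uhrf1 to Pcna was 0.533 and 0.594. As Dnmt1 and Uhrf1 are known to be highest in S phase, 18 replication and cell cycle genes were examined, which have 19 entries. Their median log2 change was 0.05, against -0.14 for all genes kept. In each direction 1 entry (5.26%) was past 2-fold, beside 10.9% lower and 8.47% higher among all genes kept. The lower one was Pola1, a subunit of the primase-polymerase complex, at 33.9 and 16.2 RPKM, which was within 2-fold, at -0.92, with the median of all genes subtracted. The higher one was Rrm2, a subunit of ribonucleotide reductase, at 44.9 and 99.4 RPKM.

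**Figure D2:**
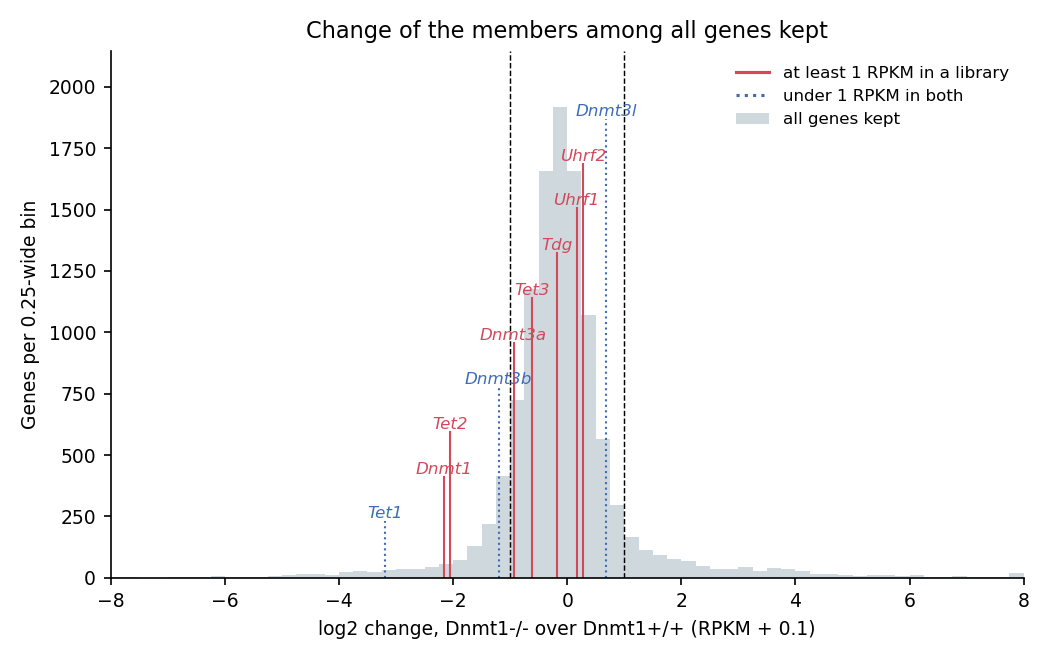
Histogram of the log2 change (RPKM + 0.1, Dnmt1-/- over Dnmt1+/+) of the 11244 genes kept, with genes beyond 8 in the outermost bins and the 10 genes as labelled lines, dotted where a gene was under 1 RPKM in both libraries. Dashed lines mark 2-fold, and Dnmt1 at -2.16 and Tet2 at -2.05 lie past it, while Uhrf1, Uhrf2 and Tdg lie near the centre.

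All 3 Tet genes were lower in Dnmt1-/- MEFs, by unequal amounts. Tet3 (chr6:83312367-83405460) was the most highly expressed, at 7.40 RPKM in Dnmt1+/+ and 4.80 in Dnmt1-/-, a log2 change of -0.61, which is within 2-fold. Tet2 (chr3:133126640-133207354) was at 1.92 RPKM in Dnmt1+/+ and 0.388 in Dnmt1-/-, a log2 change of -2.05. Tet2 passed the minimum of 1 RPKM only through the Dnmt1+/+ library. Tet1 (chr10:62267317-62342762), best known from embryonic stem cells, was at 0.889 RPKM in Dnmt1+/+ and 0.00830 in Dnmt1-/-, a log2 change of -3.19. It was under 1 RPKM in both libraries, and the size of its change rests on the pseudocount, being -0.91 with 1 RPKM and -6.74 with none.

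Within a library, the balance among the Tet genes moved towards Tet3. Tet3 made up 72.5% of the summed Tet RPKM in Dnmt1+/+ and 92.4% in Dnmt1-/-, whereas the share of Tet2 went from 18.8% to 7.46% and that of Tet1 from 8.71% to 0.160%. The sum of the 3 genes was 10.2 RPKM in Dnmt1+/+ and 5.20 in Dnmt1-/-. Both sums were well below those of the Uhrf genes, 102.0 and 119.0 RPKM. The Tet1 entry ends 7310 bp short of the RefSeq start shown above, so the first exon from that start lies outside it.

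**Figure D3:**
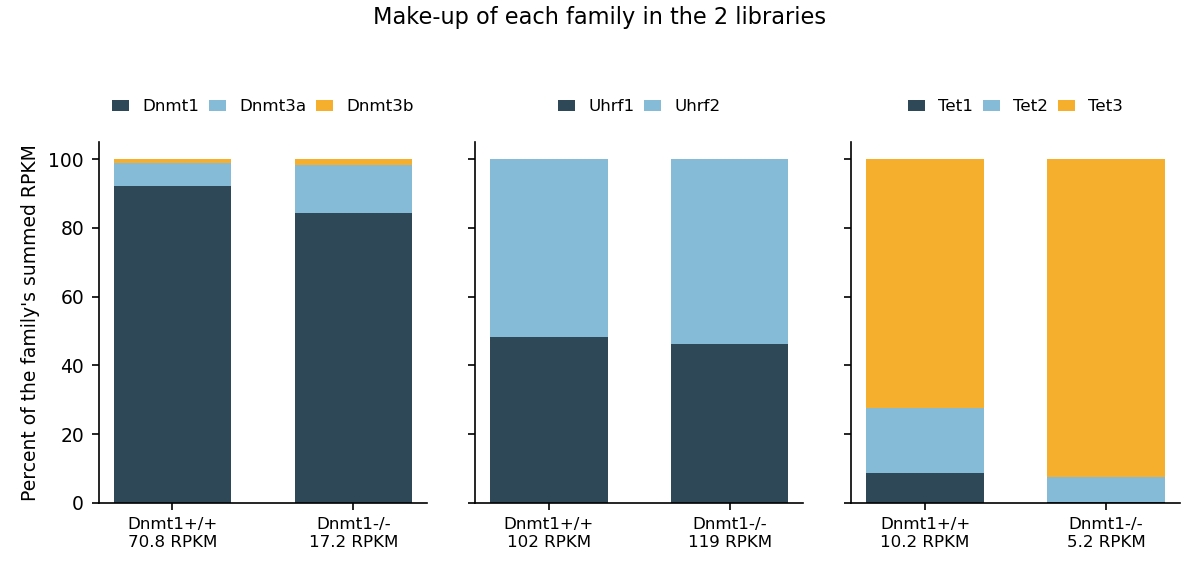
Share of each gene in the summed RPKM of its family, in percent, for the 3 catalytic methyltransferases, the 2 Uhrf genes and the 3 Tet genes, with the sums under the bars. Dnmt1 went from 92.2% to 84.3% of its family, Uhrf1 and Uhrf2 stayed close to equal, and Tet3 went from 72.5% to 92.4%.

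Tdg (chr10:82092580-82153600), the glycosylase that acts after the Tet enzymes, was at 21.2 RPKM in Dnmt1+/+ and 18.7 in Dnmt1-/-. The log2 change of -0.19 was close to the median of all genes, and it was -0.04 once that median was subtracted. This value is uncertain because of shared sequence. Of the 50-base words of the longest Tdg transcript, the length of the reads, 79.0% also occur elsewhere in the NCBI37 genome, on chromosomes 7, 10, 15 and 19. Its locus is also joined to that of Glt8d2, which was at 4.67 and 5.37 RPKM. Uhrf1 shared 29.7% of its words with other places, on chromosomes 16 and X, and Dnmt3b 8.05% with another place on chromosome 2. For the other 7 genes the share was 0.635% or less, and no word was shared between any of the 10 genes. How reads with several matches were placed is not stated in the sources used here.

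Of the 10 genes, 7 had at least 1 RPKM in either library. Among these 7, Dnmt1 and Tet2 were more than 2-fold lower and none was more than 2-fold higher, beside 10.9% lower and 8.47% higher among all genes kept. Dnmt1 is the gene mutated in the line, and Tet2 passed the minimum only through the library where it was higher. The count is therefore no measure of the 10 genes as a group. Dnmt3a, Tet3 and Tdg were lower and Uhrf1 and Uhrf2 higher within 2-fold. Without the minimum, Dnmt3b and Tet1 were also more than 2-fold lower, which makes 4 of 10. Among all genes with a symbol and status OK, 11.1% were then lower and 9.92% higher. Dnmt3l, 7.37 times as high in Dnmt1-/- by RPKM, stayed within 2-fold through the pseudocount, at values of 0.0779 RPKM or less. By the higher of the 2 values, Tet2 was the next gene above the minimum, at 1.92 RPKM in Dnmt1+/+, and Tet1 and Dnmt3b were the next below it, at 0.889 and 0.839.

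The nearest expressed genes on either side were examined to see whether the regions around the 10 genes moved as a whole. Past 2-fold, 1 of these 20 neighbours was lower and 1 was higher in Dnmt1-/- MEFs, beside 10.9% and 8.47% of all genes kept. The median log2 change of the 20 neighbours was 0.00. Eif3g and S1pr2, which flank Dnmt1 at 8.56 and 6.06 kb, went from 207 to 288 RPKM and from 17.3 to 23.9. Ccar1, 12.2 kb from Tet1, went from 68.4 to 42.6 RPKM, a log2 change of -0.68, and Ppa2, 85.6 kb from Tet2, from 25.5 to 23.8. On the other side of Tet2, at 695.8 kb, lies Cxxc4, which encodes a CXXC protein known to bind Tet2. It was at 0.311 RPKM in Dnmt1+/+ and listed at 0 in Dnmt1-/-. Mir1895, the neighbour that was more than 2-fold lower, has an entry at the same distance, at 1.26 RPKM in Dnmt1+/+ and listed at 0 in Dnmt1-/-. The neighbour that was higher was Il33, 69.7 kb from Uhrf2, at 0.574 and 1.38 RPKM. Mir1895 and Il33 each passed the minimum of 1 RPKM only through the library where they were higher.

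Other genes of DNA methylation were compared as 5 lists of 59 genes, all of which had an entry. Of their 60 entries 54 passed the minimum, and of these 5 (9.26%) were lower in Dnmt1-/- MEFs by over 2-fold, whereas 1 (1.85%) was higher. Among all genes kept the shares were 10.9% and 8.47%. The order of the lower shares depended on the setting, since at 1.5-fold 17 entries (31.5%) were lower, against 23.7% of all genes kept, and with a pseudocount of 1 RPKM the shares were 7.41% and 7.12%. The median log2 change was -0.34, against -0.14 for all genes kept.

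Partners of methylation maintenance stayed within 2-fold with 1 exception (8.33% of entries lower, beside 10.9% of all genes kept). Among 12 entries for 11 genes that act with Dnmt1 or Uhrf1, the median log2 change was -0.27, and the exception was an entry for Rb1, the retinoblastoma gene, at 1.31 and 0.520 RPKM, which was no longer called with a pseudocount of 1 RPKM or a minimum on the mean RPKM, while a second Rb1 entry was at 2.26 and 1.85. Hells, a chromatin remodeller needed for DNA methylation, went from 35.0 to 22.0 RPKM, a log2 change of -0.66. Usp7, a deubiquitinase that binds Dnmt1 and Uhrf1, was at 43.7 and 60.1 RPKM.

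Factors that direct or limit de novo methylation had lower values in Dnmt1-/- MEFs, within 2-fold for all but 1 of those that passed. Of 11 genes 9 passed the minimum, with a median log2 change of -0.50 and values from -1.06 to -0.28. Only Kdm1a was more than 2-fold lower (11.1%, beside 10.9% of all genes kept). It removes methyl groups from histone H3 and from Dnmt1 itself, and was at 35.7 and 17.0 RPKM. It was within 2-fold, at -0.92, relative to the median of all genes kept. Trdmt1, a Dnmt family member that methylates tRNA, was at 3.11 and 2.17 RPKM.

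Among cofactors and regulators of the Tet enzymes, 8 of 10 genes passed, with a median log2 change of -0.44. Only Ogt, the GlcNAc transferase that binds Tet2 and Tet3, was more than 2-fold lower (12.5%, beside 10.9% of all genes kept). It was at 31.2 and 13.9 RPKM. Idh1 and Idh2, which make 2-oxoglutarate, the cosubstrate of Tet enzymes, went from 49.8 to 25.5 and from 133 to 77.3 RPKM, in each case within 2-fold. Idh3a, listed for the same product, went the other way, from 49.6 to 70.1 RPKM, also within 2-fold. Genes of the repair steps after Tet showed a median of -0.34 over 13 of 15 genes. Gadd45g was the only one past 2-fold, in the direction of higher RPKM (7.69%, beside 8.47% of all genes kept). It was at 40.1 RPKM in Dnmt1+/+ and 159 in Dnmt1-/-, a log2 change of 1.99. Gadd45g is a stress-response gene of the Gadd45 family, which has been linked to active demethylation. Of the same family, Gadd45b was higher, at 45.8 and 74.2 RPKM, and Gadd45a lower, at 38.3 and 26.1, both within 2-fold.

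Methyl donor supply showed 2 of 12 genes (16.7%, beside 10.9% of all genes kept) more than 2-fold lower, with a median log2 change of -0.24. With the median of all genes subtracted, 1 gene was left. Mtr, methionine synthase, was at 6.15 and 2.02 RPKM, a log2 change of -1.56. Mat2a and Ahcy, which make S-adenosylmethionine and clear its product, stayed close to their levels, at 38.9 and 44.4 RPKM and at 97.3 and 78.0 RPKM.

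**Figure D4:**
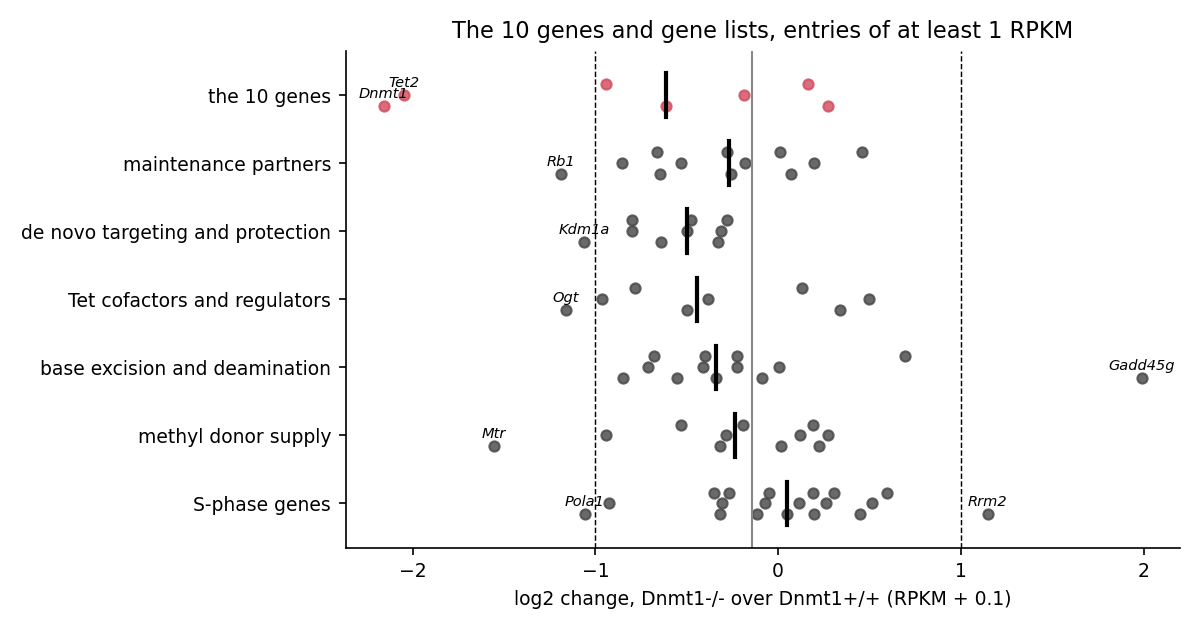
Log2 change (RPKM + 0.1, Dnmt1-/- over Dnmt1+/+) of entries that reached 1 RPKM, all but 1 of the methyl donor list, for the 10 genes (top, 7 entries), the 5 pathway lists and the S-phase list, with the median of each row as a black bar, the median of all genes kept as a grey line and 2-fold as dashed lines. The entries shown past 2-fold are named, and all row medians except that of the S-phase genes, 0.05, lie below -0.14.

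Genes known from other work to depend on methylation were examined as well, without an analysis of methylation at their promoters. Of 12 germline genes known to be silenced by promoter methylation in somatic cells, 11 had an entry and 3 reached 1 RPKM, each through the Dnmt1-/- library alone. Passing in this way fixes their direction, and whether lost methylation had a part in their values was not tested. Tex19.1 was at 0.0186 RPKM in Dnmt1+/+ and 32.1 in Dnmt1-/-. Tex101 and Slc25a31 were listed at 0 in Dnmt1+/+ and were at 3.31 and 2.62 RPKM in Dnmt1-/-. The other 8 did not reach 1 RPKM in either library, among them Dazl, listed at 0 in Dnmt1+/+ and at 0.119 in Dnmt1-/-, and Sycp3, at 0.338 and 0.0543. As Dnmt3b, Dnmt3l and Tet1 are known to be high in pluripotent cells, 10 markers of such cells were read as well. None reached 1 RPKM. The highest values were 0.482 RPKM for the joint entry of Nanog and Nanogpd in Dnmt1+/+, which was at 0.0780 in Dnmt1-/-, and 0.401 for Dppa2 in Dnmt1-/-, which was at 0.0114 in Dnmt1+/+.

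The starts of the 10 genes were last compared by CpG content, in windows from 250 bases before to 50 after a RefSeq start. The ratio of observed to expected CpGs is the count of CpGs divided by the count that the C and G content would give by random order. Taking for each gene the start nearest to its GENCODE 5′ end, the ratio ranged from 0.272 for Dnmt3l to 1.17 for Tet2, which was above 99.2% of all 32851 promoter windows. In 6 of the 10 genes it was at least 0.6, as in 35.8% of all windows, and the median was 0.65 against 0.384. Tet1, at 0.607, and Tet3, at 0.5765, lay close to that cut. The windows of the table cover 27025 genes, some with several starts, whereas 1 was chosen for each of the 10 genes, so the sets are not alike. For Dnmt1 the ratio was 0.500 at the nearest start and 0.101 at the distal one, and another RefSeq start, 250 bp inside the annotated gene, had 0.910. Uhrf1 likewise had 0.472 at its first start and 0.959 at another start 992 bp from the annotated 5′ end. At the nearest starts, the genes called more than 2-fold lower had 1.17 for Tet2 and 0.500 for Dnmt1. The 5 genes within 2-fold ranged from 0.472 for Uhrf1 to 0.988 for Tdg. Tet1, under 1 RPKM in both libraries, had 0.607. A relation between the ratio and the change was not tested.

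**Figure D5:**
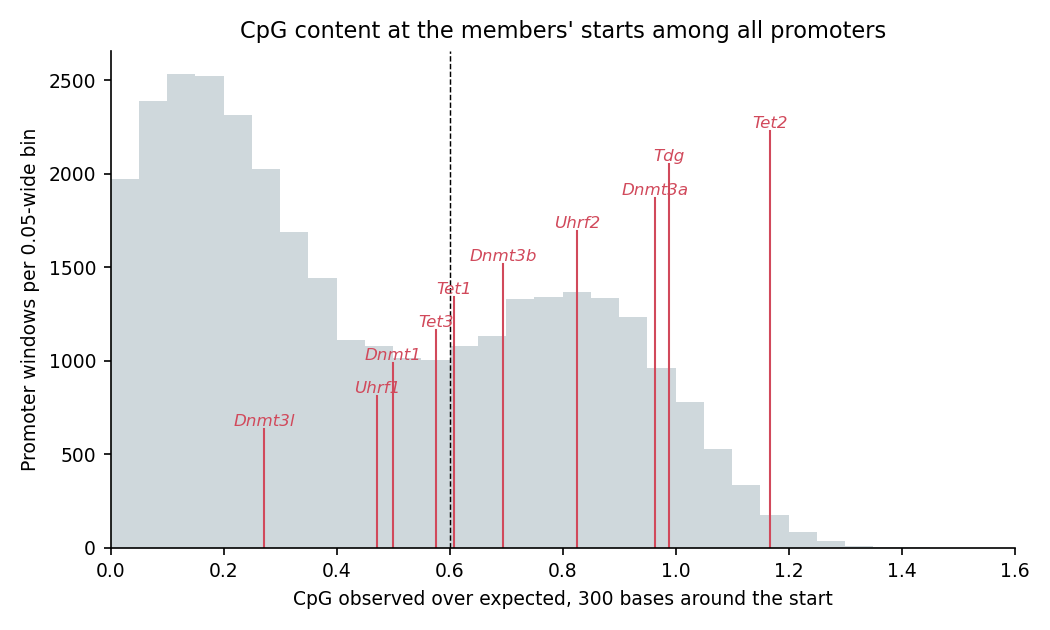
Histogram of the observed over expected CpG ratio in 32851 RefSeq promoter windows of 300 bases, with the window of each of the 10 genes nearest to its annotated 5′ end as a labelled line and the ratio of 0.6 as a dashed line. Dnmt3l at 0.272 lies among the CpG-poor windows and Tet2 at 1.17 at the upper end.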

How the data were processed

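RNA of Dnmt1+/+ and Dnmt1-/- MEFs (1 library each) was sequenced with reads of 50 bases. The authors used TopHat for alignment to mm9, Cufflinks for assembly and Cuffdiff for abundance, and deposited RPKM values in 1 column per library beside Cuffdiff's status. Tool versions, any further scaling of the libraries and the use of strand in counting are not given in the sources used here. The columns are named wild-type and knock-out and were assigned by the study's definition of these terms.

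Genes kept had a symbol, status OK and at least 1 RPKM in either library. The change is log2(RPKM + 0.1) in Dnmt1-/- minus Dnmt1+/+. Read counts are not part of the table, so counting errors are unknown and zeros are called listed at 0. Calls are by a 2-fold threshold without p-values, since there are no replicates. The 10 genes and the lists were chosen with earlier results of these data known. All 10 genes are named, and from each list the genes past 2-fold, except 1 that is not reported here, while other named list genes, the choice of markers to print, the neighbours and the repeated word were picked with their values in view. The code for changes and calls was checked on Dnmt1+/+ values multiplied by known folds, without noise and without genes of low level. That check does not bear on how certain a call is.

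Promoter windows came from RefSeq and were matched to their own chromosome of the NCBI37 genome, on the strand of the gene. No entry of the table lies past the end of its chromosome in that genome. Words of 50 bases from the longest coding transcript of each gene (GENCODE) were searched for on both strands of that genome. Exact matches outside the gene were counted, which misses words that differ by a base. Alternatives were other pseudocounts, filters, scalings, status and thresholds. Python 3.11.15, numpy 2.4.6, pandas 2.3.3 and matplotlib 3.10.9 were used.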

Additional observations from a re-analysis of the deposited data

How the results depend on the processing

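The number of the 10 genes more than 2-fold lower, 2 as reported, was 4 without the filter on low RPKM and 4 with a 1.5-fold threshold, and none was higher under any of the 10 alternatives. Without that filter, 11.1% of all genes with a symbol and status OK were lower and 9.92% higher. Among the pathway lists, the 5 entries more than 2-fold lower became 3 when the median change was subtracted and 17 at 1.5-fold, and the 1 higher entry became 2 at 1.5-fold. Of all genes kept, the share more than 2-fold lower was 7.12% with a pseudocount of 1 RPKM. At 1.5-fold 23.7% were lower and 14.1% higher, and with entries that carry no symbol the shares past 2-fold were 17.5% and 13.0%. Of the single genes, Dnmt1 stayed between -2.17 and -2.02 and Tet2 between -2.30 and -1.07 on the log2 scale. Dnmt3b, at -0.49, and Tet1, at -0.91, were within 2-fold with a pseudocount of 1 RPKM. Dnmt3l was at 2.10 with a pseudocount of 0.01 RPKM and at 2.88 with none, on values of 0.0779 RPKM or less. The median CpG ratio of the 10 genes was 0.62 over the 250 bases before the start alone. Each of the 10 genes kept its sign under all of these settings, but pseudocount, filter, status and threshold cannot turn a sign. Only the scalings and the subtraction of the median can, and all of these moved changes upwards. The causes of the shifts were not tested. No paired analysis was possible because each genotype has 1 library. The number of reads behind a value is not in the table, which bears most on levels under 1 RPKM, those of Dnmt3b, Dnmt3l and Tet1 in both libraries and of Tet2 in Dnmt1-/-.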
